A study of Mus musculus with 4 samples.

Results

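Of 19907 promoter regions that carried an H3K27ac peak in at least 1 of 4 sorted cell populations, 812 (4.08%) had a peak in the chondrocytes of both the limbs and the trunk and in neither of the populations left after chondrocytes were removed. These 812 regions touched the promoters of 766 genes, 6.04% of the 12674 protein-coding genes with any promoter peak. They were chosen by the deposited peak calls themselves: intervals of all 4 lists that overlapped by at least 1 bp were merged into 62558 regions, and a region belonged here if it reached the promoter window of a protein-coding gene in GRCm39, which starts 2 kb before a start site and ends 500 bp after it, was overlapped by an EGFP+ interval of each tissue, and was overlapped by no EGFP- interval of either tissue. The mirror image, peaks in both EGFP- lists and in no EGFP+ list, was found at 351 promoter regions (1.76%). Each EGFP- list was shorter than the EGFP+ list of its tissue. The part of list length in the difference between 812 and 351 was not tested. Outside promoter windows, 4623 of 42651 regions (10.8%) had the same pattern as the 812.

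H3K27ac, acetylation of lysine 27 of histone H3, marks active promoters and enhancers and is removed when they fall silent. Most genes needed by every cell have a promoter rich in CpG dinucleotides that carries the mark in many cell types, whereas genes of a specialised cell carry it only where they are used. Fetal chondrocytes are such cells: they lay down a matrix of type II collagen fibrils and aggrecan under the control of SOX9 with SOX5 and SOX6, and they are guided through growth plate maturation by FGF, hedgehog, PTHrP, BMP and WNT signals.

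The 4 libraries came from E14.5 mouse fetuses that carried, on both alleles, a Col2a1-EGFP sensor, a minimal β-globin promoter with EGFP placed a little upstream of the Col2a1 start site. The fetuses were made by tetraploid aggregation from 1 G4 embryonic stem cell clone. Limbs and trunk were dissociated, cells of several fetuses were pooled, and flow cytometry separated EGFP+ cells, mostly chondrocytes, from EGFP- cells, which hold all other cell types of the tissue. Every population, limb EGFP+, limb EGFP-, trunk EGFP+ and trunk EGFP-, was measured in 1 library, so no difference between populations has a replicate check and none was tested. The labels place limb and trunk libraries on different lanes, which makes the effect of a lane inseparable from that of the tissue.

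The limb EGFP+ list held 40899 intervals, the limb EGFP- list 34360, the trunk EGFP+ list 36231 and the trunk EGFP- list 30716. Summits had a median of 24 to 26 reads and a lowest value of 7 or 8. A locus without a listed EGFP- interval can therefore still have held reads of that population, below what the peak caller accepted over its local background. Promoters of the 16 chondrocyte marker genes fixed for this check had a peak in both EGFP+ lists in 16 of 16 cases, in the limb EGFP- list in 5 and in the trunk EGFP- list in 4, and 14 of the 16 genes had one of the 812 regions. Of 5 muscle, 5 connective tissue, 5 epithelial, 4 endothelial or blood and 3 neural marker genes, none had one. Among these, Myog (muscle), Kera (connective tissue) and Sox10 (neural) had a promoter peak in the limb EGFP+ list and in no other list. The EGFP- lists showed few of these other cell types themselves: the 5 muscle, the 5 epithelial and the 4 endothelial or blood markers had no promoter peak in either of them, while 4 of 5 connective tissue markers had one in each. A promoter that chondrocytes share with a cell type rare in the EGFP- pool can therefore be among those described here, and in a pool fewer acetylated cells and less acetylation per cell cannot be told apart.

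The DNA under 8 regions at well-known cartilage genes is shown as examples, chosen after their values were seen. Each is 200 bases, or 150 at Acan, read from GRCm39 on the strand of the gene, and is the stretch of the region free of annotated exons that lies nearest to the limb EGFP+ summit. Capitals mark the SOX half-site letters AACAAT or ACAAAG, searched on both strands, so that ATTGTT and CTTTGT are the same letters read from the other strand. The first 7 begin at the first base after an annotated exon, and the Sox9 stretch lies upstream of the gene. Exons of any annotated transcript were counted, and of these 7 stretches only that at Acan does not open with the letters gt.
Chadl, chr15:81581230-81581429, minus strand: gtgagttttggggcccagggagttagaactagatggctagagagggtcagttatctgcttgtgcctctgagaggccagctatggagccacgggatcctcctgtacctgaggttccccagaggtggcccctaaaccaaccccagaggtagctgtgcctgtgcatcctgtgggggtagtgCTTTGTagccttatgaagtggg
Col9a1, chr1:24216950-24217149, plus strand: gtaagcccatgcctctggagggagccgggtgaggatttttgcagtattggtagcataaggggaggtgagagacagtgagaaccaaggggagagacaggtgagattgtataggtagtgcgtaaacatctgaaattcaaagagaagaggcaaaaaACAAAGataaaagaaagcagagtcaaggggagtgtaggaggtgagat
Itga10, chr3:96553003-96553202, plus strand: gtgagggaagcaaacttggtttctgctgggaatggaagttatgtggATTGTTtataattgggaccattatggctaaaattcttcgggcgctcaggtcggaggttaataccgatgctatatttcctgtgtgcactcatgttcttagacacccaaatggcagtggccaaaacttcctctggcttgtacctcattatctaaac
Col9a3, chr2:180240728-180240927, plus strand: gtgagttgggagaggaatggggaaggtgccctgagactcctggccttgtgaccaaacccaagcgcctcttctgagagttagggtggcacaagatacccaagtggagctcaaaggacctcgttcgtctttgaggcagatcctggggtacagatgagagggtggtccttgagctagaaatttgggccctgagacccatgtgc
Hapln1, chr13:89689032-89689231, plus strand: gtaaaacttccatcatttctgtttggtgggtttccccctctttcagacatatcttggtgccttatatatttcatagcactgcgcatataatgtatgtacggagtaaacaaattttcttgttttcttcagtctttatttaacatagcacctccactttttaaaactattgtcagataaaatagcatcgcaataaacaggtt
Col11a2, chr17:34258711-34258910, plus strand: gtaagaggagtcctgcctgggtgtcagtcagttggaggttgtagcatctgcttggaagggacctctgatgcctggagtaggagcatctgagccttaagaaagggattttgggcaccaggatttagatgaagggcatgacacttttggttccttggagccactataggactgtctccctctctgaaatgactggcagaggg
Acan, chr7:78703418-78703567, plus strand: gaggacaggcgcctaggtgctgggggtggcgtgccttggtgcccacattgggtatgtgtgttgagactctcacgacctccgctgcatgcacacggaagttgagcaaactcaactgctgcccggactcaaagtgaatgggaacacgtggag
Sox9, chr11:112672026-112672225, plus strand: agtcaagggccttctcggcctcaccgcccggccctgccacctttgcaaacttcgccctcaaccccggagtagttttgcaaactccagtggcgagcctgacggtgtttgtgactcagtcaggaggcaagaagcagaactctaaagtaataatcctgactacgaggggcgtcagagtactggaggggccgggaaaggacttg
Chadl, Col9a1 and Itga10 hold 1 such match each, and the other 5 stretches hold 0. Their middles lie 212, 359, 203, 813, 1217, 182 and 529 bp downstream of the nearest start site for the first 7 genes, in the order shown, and 883 bp upstream for Sox9.

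Strength is given here as the −log10 p that the peak caller attached to a summit, which compares the reads piled up at the summit with the local background of the same library. In the limb EGFP+ list the strongest value in each of the 812 regions ran from 3.31 to 45.0 with a median of 9.57, and in the trunk EGFP+ list from 3.36 to 31.0 with a median of 7.98. The median summit held 26 reads in the limb list and 23 in the trunk list. Counting error alone gives a single summit of 26 reads an exact Poisson interval of 16.98 to 38.1, and a single summit of 23 reads one of 14.6 to 34.5. These are not intervals of the median. Promoter regions with a peak in all 4 populations were stronger in the same lists, with medians of 30.7 and 22.98, and they were wider, at a median of 847 bp against 437 bp. Only 52 of the 812 regions (6.40%) had summits of at least 50 reads in both lists. Since the lists that give these values also chose the regions, they are a description.

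Limb values exceeded trunk values in 543 of the 812 regions (66.9%) and in 10233 of the 12763 regions with all 4 peaks (80.2%), so that a higher limb value was no particular feature of the regions described here. The difference between tissues was widest at Sec14l2 among the 20 strongest regions, with 45.0 in the limb list and 18.8 in the trunk list. Susd5 lay on the other side, with 14.7 in the limb list and 25.3 in the trunk list.

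**Figure D1:**
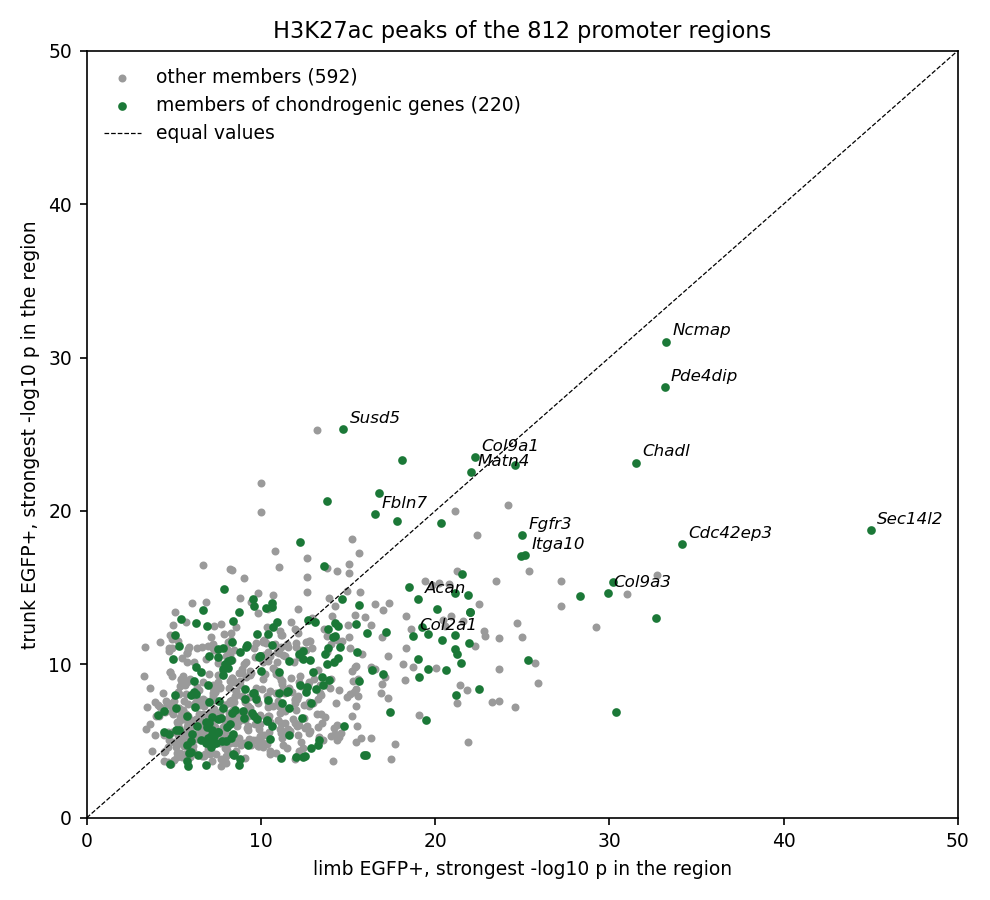
Strongest −log10 p of each of the 812 regions in the limb EGFP+ list (x axis) and the trunk EGFP+ list (y axis), with 1 point per region. Green points are the 220 regions at a gene of the study's chondrogenic list, grey points the other 592, and the dashed line marks equal values. Most points lie between 3 and 20 on both axes, Ncmap and Pde4dip stand at the upper end of both, and Sec14l2 is far to the limb side.

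The region with the highest value of the weaker tissue was at Ncmap (chr4:135112256-135113084), a gene named for a protein of noncompact myelin. Its summit had a −log10 p of 33.3 in limb EGFP+ cells (63 reads over a background of 8.50, the pileup that the caller expected from the surrounding sequence) and 31.0 in trunk EGFP+ cells (68 reads over 11.02), 118 bp downstream of a start site. A second region 542 bp upstream of that start site reached 17.8 and 19.3, and the nearest EGFP- interval was 30319 bp from the first region. Pde4dip, which encodes the centrosome and Golgi protein myomegalin, followed with 33.2 and 28.1 at a start site 98263 bp from the gene's nearest promoter region with all 4 peaks. Both genes are on the study's chondrogenic list, although neither is a textbook cartilage gene.

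Chadl, the gene of the collagen-binding chondroadherin-like protein, came after them with 31.5 in limb and 23.2 in trunk EGFP+ cells (64 and 44 reads). C130050O18Rik came next with 24.6 and 23.02, Col9a1 with 22.3 and 23.5 and Matn4 with 22.1 and 22.5. The rest of the 20 strongest regions were at Ctnnbip1, which encodes an inhibitor of β-catenin, Aldh18a1, an enzyme of proline synthesis, the potassium channel gene Kcnq5, Sec14l2, Fgfr3, the microfibril gene Thsd4, the carbonyl reductase gene Cbr2, Cdc42ep3, the second Ncmap start region, Itga10, the ion pump regulator gene Fxyd3, Dcaf12l2, the fibulin gene Fbln7 and Agrn, which encodes the heparan sulfate proteoglycan agrin. Their weaker value ran down to 16.1, at Agrn. Ctnnbip1, Aldh18a1, Cdc42ep3 and Agrn lay within 1 kb of an EGFP- interval, at 640, 214, 268 and 786 bp, whereas Dcaf12l2 on the X chromosome had none within 1 Mb. All but 4 of these 20 regions, those of Ctnnbip1, Aldh18a1, Thsd4 and Agrn, were at genes of the chondrogenic list.

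That list holds the genes that the study called chondrogenic from RNA-seq of the same 4 kinds of sorted population, and 655 of its entries are protein-coding with a start site. It was not used to choose the regions, but it rests on the same sort into EGFP+ and EGFP- cells and is no independent sample of tissue. Of the 812 regions, 220 (27.1%, exact 95% interval 24.1 to 30.3%) touched a promoter of a listed gene. The same share was 1.99% (1.75 to 2.25%) among the 12763 promoter regions with all 4 peaks and 3.70% (1.99 to 6.25%) among the 351 with both EGFP- peaks only. Promoter regions with a peak in 1 EGFP+ list alone were between these values, at 12.4% for the limb (162 of 1308) and 11.6% for the trunk (73 of 631), and their intervals lay apart from that of the 812. These intervals cover counting error only and take several regions of 1 gene as separate.

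Seen from the genes, 180 of the 766 (23.5%, 20.5 to 26.7%) were listed as chondrogenic, against 307 of the other 11908 genes with a promoter peak (2.58%). Conversely 180 of the 655 listed genes had one of the regions, and 152 had a promoter region with all 4 peaks and none of these, while 168 had no promoter peak at all. The list is divided into genes common to chondrocytes of both tissues, limb-specific and trunk-specific genes. Of the common genes 171 of 563 had such a region, of the limb-specific genes 3 of 49, Igf2, Prdm16 and Pthlh. Of the trunk-specific genes it was 6 of 43, namely Agt, Dio2, Foxl1, Itih6, S100b and Smpd3. No promoter peak at all was found at 119, 28 and 21 of these genes. Among those with one the shares were 38.5% (33.96 to 43.2%), 14.3% (3.05 to 36.3%) and 27.3% (10.7 to 50.2%). The share of all genes with a promoter peak was 6.04%, which lies inside the limb-specific interval. The rule asks for peaks in both tissues, which works against tissue-specific genes, so the lower shares may follow partly from it.

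The share of listed genes moved with strength and with the distance to the nearest EGFP- interval. It was 38.9% (79 of 203) in the 203 regions with the highest weaker value, which started at 9.67, and 25.6%, 21.2% and 22.7% in the next 3 sets of 203 in falling order of that value. Regions within 1 kb of an EGFP- interval numbered 385, and 14.55% of them (11.2 to 18.5%) were at a listed gene. It was 34.3% (27.2 to 42.1%) for the 166 regions between 1 and 10 kb and 40.996% (35.0 to 47.2%) for the 261 regions further away. The medians of the weaker −log10 p in these 3 groups were close together, at 7.27, 6.76 and 6.76.

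**Figure D2:**
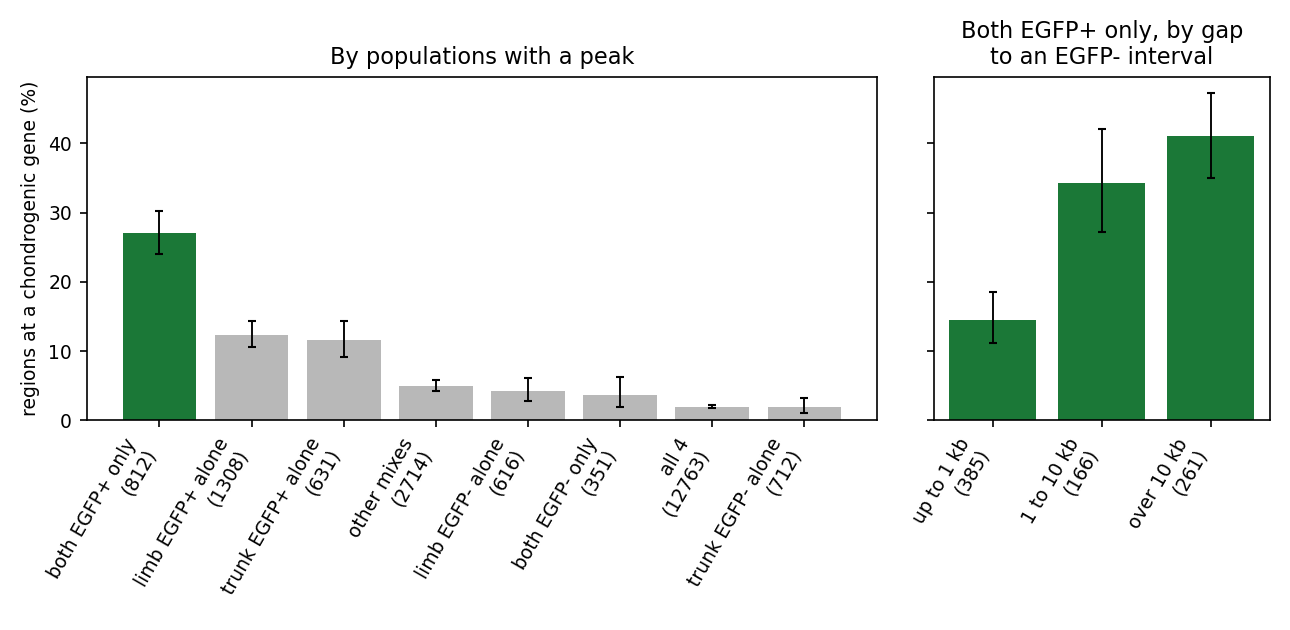
Percent of promoter regions that touch a gene of the study's chondrogenic list, by the populations that had a peak (left) and, for the 812 regions, by the gap to the nearest EGFP- interval (right). Numbers in parentheses are regions, bars start at 0 and whiskers are exact 95% intervals for counting error. The share is 27.1% for the 812 regions against 1.99% for regions with all 4 peaks, and within the 812 it goes from 14.55% within 1 kb to 40.996% beyond 10 kb.

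The edge of the rule was thin in places. Rnf141, Clxn and Kcnt2 were counted with an EGFP- interval only 1, 4 and 5 bp away. Regions at Htra3, Klf5 and Ank2 were left out for an overlap of 41, 41 and 46 bp between an EGFP+ and an EGFP- interval. Htra3 was still among the 766 genes through another region. Col9a2, another chain gene of type IX collagen and picked here after its values were seen, was left out by a single weak interval: its promoter region had a −log10 p of 37.2 in limb EGFP+ cells (110 reads) and 31.0 in trunk EGFP+ cells (90 reads), no limb EGFP- interval, and a trunk EGFP- interval at 3.48 with 12 reads. The weakest regions inside were at Ncs1, with 3.31 in the limb list and 9.22 in the trunk list, Serpinh1, with 7.69 and 3.36, and Mosmo, with 3.37 and 11.1.

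The gene lists that follow are given over all their genes with a start site, to be read beside the 766 of all 21581 such genes (3.55%). Fibrillar and fibril-associated collagens of cartilage were the list with the highest share: 5 of its 8 genes (62.5%), or 5 of the 7 with a promoter peak, had one of the regions. Col9a1, which encodes a chain of type IX collagen, had a region at each of 2 start sites. The first (chr1:24216703-24218240) had 64 reads in limb and 60 in trunk EGFP+ cells, and the second (chr1:24233809-24235052) had 90 and 63 reads. Col9a3 had the highest limb pileup of the whole set together with Col2a1, 110 reads, with 77 in trunk EGFP+ cells and a −log10 p of 29.9 and 14.6. At Col11a2, a chain of type XI collagen, a region of 2214 bp across the start site reached 21.99 and 13.4. Col27a1 reached 21.3 and 10.7 with the nearest EGFP- interval 587 bp away.

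Col2a1 itself, the gene of type II collagen and of the sensor, ranked 100th with 18.7 in limb and 11.8 in trunk EGFP+ cells. Its 110 and 84 reads stood over backgrounds of 41.1 and 35.5, so its fold was only 2.63 and 2.33. A second region at the gene, 514 bp downstream of a start site, had peaks in both EGFP+ lists and a limb EGFP- peak of 5.67, and so was not counted. The region counted (chr15:97902991-97903792) lies immediately downstream of the place where the study inserted the sensor, and the part of the insertion in its peak was not tested.

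Among proteoglycans and their partners, 6 of 19 genes (31.6%) had a region, against 3.55% of all genes. Acan, the gene of aggrecan, had regions 447 bp upstream and 400 bp downstream of its start site, with a −log10 p of 12.9 and 19.04 in limb and 7.51 and 14.2 in trunk EGFP+ cells, and no EGFP- interval within 60 kb. Hapln1, whose link protein ties aggrecan to hyaluronan, had a region at 21.98 and 13.4 beside a promoter region with peaks in all 4 populations 340 bp away. Chad reached 15.5 and 10.8, Prelp 13.6 and 8.68, and Cspg4, the gene of the NG2 proteoglycan, 5.89 and 4.25 in a region it shared with Cimap1c. The promoter of Dcn, the decorin gene of fibrous connective tissue, had EGFP- peaks alone, while Vcan and Bgn had promoter regions with all 4 peaks.

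Matrilins and other noncollagenous matrix proteins gave 12 of 23 genes (52.2%, against 3.55% of all genes), 8 of them with no other promoter region. Matn4 led with 80 reads in limb and 70 in trunk EGFP+ cells. Fbln7 had 29 and 37 reads, Susd5 38 and 58, Snorc, a transmembrane proteoglycan gene, 58 and 40, Comp, the cartilage oligomeric matrix protein gene, 37 and 36, and Scrg1 47 and 29. Singled out after its values were seen, Matn1 had 3 separate regions within 2015 bp, all weaker than the median in trunk EGFP+ cells (4.99, 4.95 and 4.04) and none with an EGFP- interval within 60 kb. The other members of the list were Cnmd, Cytl1, Hhip, Matn3 and Mia.

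**Figure D3:**
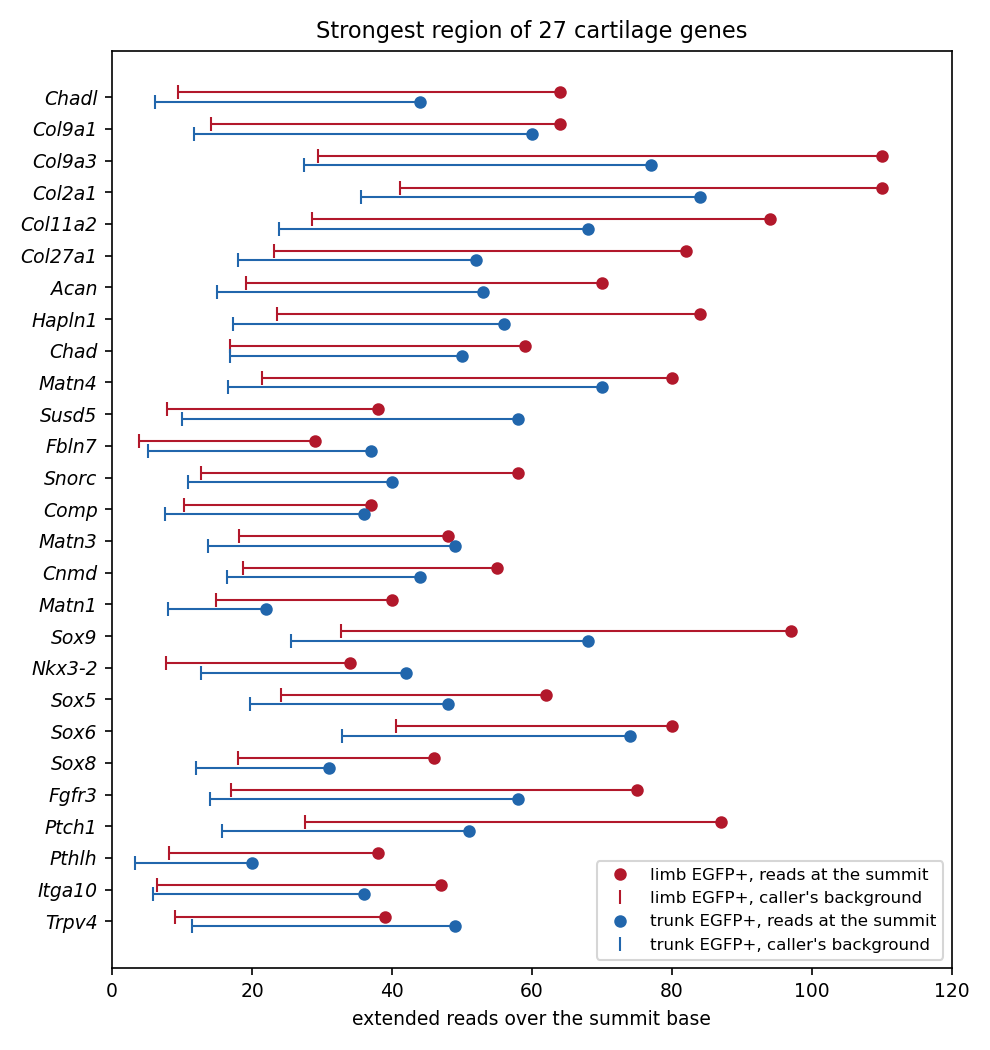
Reads over the summit base (points) and the background expected by the peak caller (ticks) in limb EGFP+ (red) and trunk EGFP+ (blue) cells, for the strongest of the regions at each of 27 cartilage genes. Each value comes from 1 library. Pileups run from 20 reads at Pthlh in the trunk to 110 at Col9a3 and Col2a1 in the limb, and the background is highest at Col2a1 and Sox6.

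Genes that make, modify and export matrix, used by many secreting cells, were mostly marked everywhere. Of 42 genes for chondroitin and heparan sulfate synthesis 32 had a promoter region with all 4 peaks and no region of the set, and only Extl1 had one (2.38% of the list, against 3.55% of all genes), with 9.23 in limb and 11.3 in trunk EGFP+ cells. Of 71 genes for collagen processing and secretion 61 were of the all-4 kind and 4 had a region (5.63%, near the 3.55% of all genes): P4ha2, a prolyl hydroxylase subunit gene (25.3 and 10.3), Pcolce2, a procollagen processing enhancer gene (5.09 and 11.9), Kdelr3, a retrieval receptor gene of the endoplasmic reticulum (3.46 and 7.20), and Serpinh1, the collagen chaperone gene. In 3 of these, P4ha2, Kdelr3 and Serpinh1, a promoter region with all 4 peaks lay at the same gene. Genes of hypoxia and glycolysis were alike, and 31 of 40 had a promoter region with all 4 peaks and no region of the set. The 3 in the set (7.50%, or 7.89% of those with a promoter peak against the background of 6.04%) were Pfkfb3 with 3 regions, Pfkp (21.1 and 11.01) and Aldoa, in a region it shared with Tlcd3b (5.86 and 11.2). Neither this list nor the one before it stood out by its count.

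Of 83 listed transcription factor genes, 13 (15.7%, against 3.55% of all genes) had a region: Epas1, Fli1, Foxa3, in a region it shared with Sympk, Gli1, Mef2a, Nfib, Nkx3-2, Pax9, Runx2, Sox5, Sox6, Sox8 and Sox9. In 7 of the 13 the gene also had a promoter region with all 4 peaks. Nfib was strongest, with 91 reads in limb and 61 in trunk EGFP+ cells, only 105 bp from an EGFP- interval. Sox9, the master regulator of chondrocytes, had 97 and 68 reads (19.6 and 11.96) in a region 883 bp upstream of its start site (chr11:112671775-112672334), and 203 bp from an EGFP- interval. A region with all 4 peaks had its summit 528 bp downstream of the start site of Sox9. Nkx3-2, a repressor gene of the axial and joint skeleton, had 34 and 42 reads, with no EGFP- interval within 50 kb, and Gli1, a target and effector of hedgehog signalling, had 70 and 54.

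Sox5 and Sox6, the partners of Sox9, were picked out after their values were seen. Sox5 had 62 reads in limb and 48 in trunk EGFP+ cells, over backgrounds of 24.2 and 19.7. For Sox6 the counts were 80 and 74, over 40.6 and 32.8. Both regions were near an EGFP- interval, at 335 and 205 bp. Runx2, which drives hypertrophy and bone formation, had 2 regions that it shared with the overlapping gene Supt3, at 7.53 and 6.43 and at 11.6 and 5.38, so that the gene behind these peaks cannot be told apart.

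Of 34 genes of FGF, hedgehog and PTHrP signalling, all with a promoter peak, 9 (26.5%, against 6.04% of all genes with one) had a region. Another 20 had a promoter region with all 4 peaks and no region of the set. Fgfr3, the receptor that restrains growth plate proliferation, had 3 regions within 2029 bp and no EGFP- interval within 50 kb. Their limb values were 25.0, 30.2 and 12.4 and their trunk values 18.4, 15.4 and 3.97. Ptch1, the hedgehog receptor, reached 19.3 and 12.4, and its co-receptors Cdon and Gas1 16.3 and 12.6, and 12.1 and 12.03. Hhip, a hedgehog antagonist, reached 11.5 and 8.21. Pthlh, the ligand that delays hypertrophy, had 38 limb reads and 20 trunk reads (14.2 and 10.1). The other 3 were Fgf1, Fgfrl1 and Gnas.

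BMP and TGF-β signalling gave 8 of 52 genes (15.4%, against 3.55% of all genes). The receptor gene Acvr1 had 2 regions, the stronger at 9.69 and 8.44. Ctdspl, a phosphatase gene, had 11.05 and 8.14, the ligand genes Bmp4 and Gdf10 had 8.47 and 7.53, and 19.5 and 6.35, Smad9, a BMP effector, 6.18 and 8.93, and Scube3 6.92 and 5.94. Bmp5 and Bmp7 were also counted. In limb EGFP+ cells Gdf10, Ctdspl and Acvr1 were above the median of the set and the other 5 genes below it.

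WNT, IGF and natriuretic peptide signalling gave 6 of 51 genes (11.8%, against 3.55% of all genes). Among the 44 with a promoter peak the share was 13.6% (5.17 to 27.4%), an interval that holds the 6.04% of all such genes. Sfrp1, a secreted WNT inhibitor, had 11.1 and 12.1, and Axin2, a target and inhibitor of the pathway, 10.2 and 10.6. The receptor gene Fzd9 had 2 regions, the stronger at 9.79 and 11.98. Igf2, the fetal growth factor gene, had 81 reads in limb and 93 in trunk EGFP+ cells, the highest trunk pileup of the set, but over backgrounds of 41.1 and 36.3. Prkg2, the kinase through which C-type natriuretic peptide signals, had 7.52 and 10.5, with no EGFP- interval within 100 kb.

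On a list of integrins, cytoskeleton, matrix proteases and related genes, 6 of 49 (12.2%, against 3.55% of all genes) had a region. Among the 42 with a promoter peak it was 14.3% (5.43 to 28.5%), an interval that holds the 6.04% of all such genes. Itga10, the collagen-binding integrin chain of chondrocytes, reached 25.2 and 17.1 (chr3:96552770-96554098) and had no other promoter region. Trpv4, a calcium channel gene in which mutations cause skeletal dysplasia, had 2 regions, at 13.6 and 16.4 and at 20.6 and 9.63. Itga6 (18.3 and 13.2), Ift88 (14.04 and 11.3), S100b (8.28 and 10.3) and Adamtsl2 (6.50 and 7.47) completed the list. Of 12 genes for primary cilium and Hippo signalling, all with a promoter peak, 2 (16.7%, 2.09 to 48.4%) had a region. That interval holds the 6.04% of all genes with a promoter peak. The 2 were Tead3 (22.3 and 11.2) and Lats2 (4.95 and 12.6), the first 184 bp from a promoter region with all 4 peaks and the second 42164 bp from one.

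The lists for other cell types gave 0 or 1 gene each, counts too small to set apart from the 3.55% of all genes. None of 22 tendon and fibrous tissue genes, of 25 endothelial and blood genes and of 20 epithelial genes had a region. Mylpf was the only one of 20 muscle genes (9.44 and 9.46, 943 bp upstream of its start site and 149 bp from a promoter region with all 4 peaks) and Isl1 the only one of 20 neural genes (5.41 and 8.95). Runx2 was the only one of 15 osteoblast genes. Most genes of the muscle, endothelial, neural and epithelial lists had no promoter peak in any population, 15 of 20, 20 of 25, 13 of 20 and 14 of 20, so that the members are 1 of 5 muscle genes and 1 of 7 neural genes with any promoter peak.

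**Figure D4:**
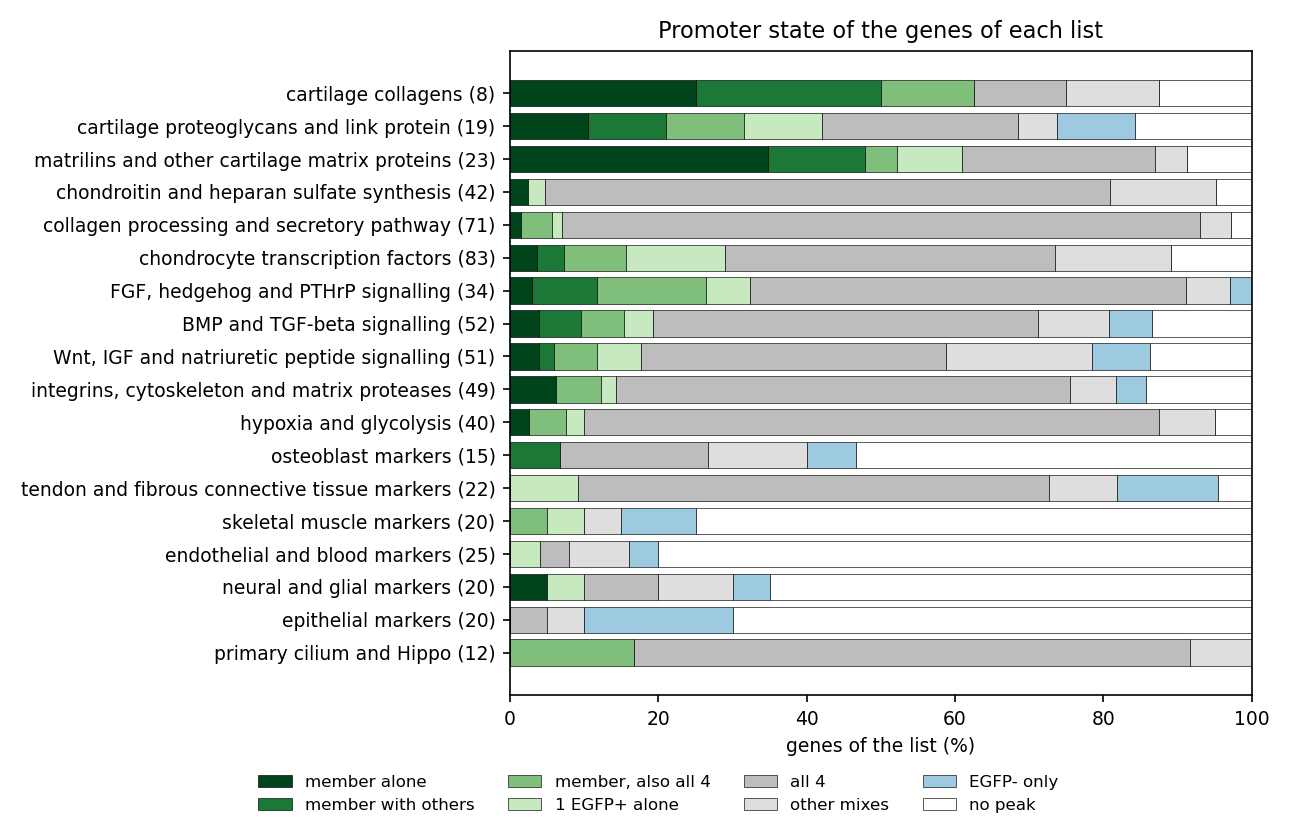
Promoter state of the genes of each list, as percent of the genes of the list (numbers in parentheses) along the x axis. The 3 darker greens are genes with one of the 812 regions, alone, with other promoter regions, or beside a region with all 4 peaks. The palest green is peaks in 1 EGFP+ list alone, greys are regions with all 4 peaks or other mixes, blue is EGFP- only and white no peak. Matrix protein lists are greenest, with 5 of 8, 6 of 19 and 12 of 23 genes, and biosynthesis and secretion lists are mostly grey.

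Marker genes given in the supplement for clusters of single fetal limb cells provided a further set of lists. Of 125 chondrocyte cluster markers with a promoter peak 43 (34.4%, 26.1 to 43.4%) had a region, and 74 had a promoter region with all 4 peaks but none of the set. The counts in the other clusters were 4 of 33 for perichondrium, 16 of 173 for pre-osteoblasts, 9 of 120 for pericartilaginous mesenchyme, 14 of 213 for tendons, 20 of 319 for muscle connective tissue, 10 of 235 for dermis and 3 of 115 for interdigit mesenchyme. All of these shares, 2.61 to 12.1%, are to be read beside the 6.04% of all genes with a promoter peak, and clusters share some markers.

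The gene lists covered a minority of the set. Only 205 of the 766 genes (26.8%) were on any of the 18 fixed lists or on the chondrogenic list. The fixed lists include those for other cell types, and the single-cell cluster markers were not part of that count. Families defined by gene symbol, after the members were known, cut across listed and unlisted genes. Golgi glycosyltransferase genes gave 12 of 52 genes with a promoter peak (23.1%, the family including sulfotransferases named Gal3st), of which Mgat4a (21.5 and 15.9) and B3galt5 (14.6 and 14.2), both on the chondrogenic list, were the strongest. Semaphorin genes, which encode guidance cues, gave 6 of 16, frizzled receptor genes 3 of 10, synaptotagmin genes 3 of 7, axonemal dynein heavy chain genes 3 of 7 and all collagen chain genes together 7 of 32, Col16a1 and Col8a2 being the members outside the cartilage list.

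Solute carrier genes gave 17 of 214 (7.94%), Rab GTPase genes 5 of 51, kinesin genes 4 of 39, potassium channel genes 3 of 29, replication-dependent histone genes 5 of 56 and Zfp zinc finger genes 12 of 354 (3.39%). Of families that every cell needs, none of 82 ribosomal protein genes (0 to 4.40%) and none of 47 complex I subunit genes (0 to 7.55%) had a region. The same held for 38 proteasome subunit genes (0 to 9.25%). Mitochondrial ribosomal protein genes gave 1 of 78, Mrpl23 (0.0325 to 6.94%), and translation initiation factor genes 2 of 52 (3.85%, 0.469 to 13.2%), Eif4e3 and Eif5a2. Only the first of these intervals lies below the 6.04% background. None of 26 Hox genes with a promoter peak had a region (0 to 13.2%). These counts are set beside the 6.04% background and carry no test.

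In 78 of the 766 genes there were 2 or more regions and in 12 there were 3: Ctdsp1, Eps8, Fam53b, Fgfr3, Klf4, Matn1, Mlph, Mtss2, Pacsin2, Pfkfb3, Sorbs2 and Trib3. At Fgfr3, Matn1 and Mlph all 3 lay within 2029, 2015 and 1703 bp, so that neighbouring regions of 1 gene are not independent of each other. Almost all regions, 769 of 812, touched the promoter of 1 gene. Of the 42 that touched 2, the strongest were at Lcp1 and Lrrc63 (17.4 and 14.02), Ankrd34a and Polr3gl (12.7 and 14.7), and 2810408A11Rik and Neurl4 (10.8 and 11.4), and the peak does not say which of the pair it belongs to.

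Only 206 of the 766 genes had regions of the set and no other promoter region, and 37.9% of these were on the chondrogenic list. Another 167 also had promoter regions with peaks in other mixes of populations (33.5%), and 393 also had one with all 4 peaks (11.7%). A region of the latter kind, at any gene that the region touched, was within 1 kb for 277 of the 812 regions (34.1%), at 1 to 5 kb for 35 and further than 5 kb for 95 (11.7%). The remaining 405 had none at any of their genes, and 40.2% of these were at a chondrogenic gene, against 12.6% of the 277.

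The 95 distant cases lay at another start site than the generally marked region of their gene. Where a case touched more than 1 gene, that marked region can belong to any of them, as in a case shared by Runx2 and Supt3, where Runx2 had none. After Pde4dip, the strongest at a start site other than the first were at Aspscr1, where 2 regions at 15.4 and 15.3 (weaker tissue) lay 12927 and 11891 bp from the promoter region with all 4 peaks, Agtpbp1 (15.2, at 27453 bp), Col16a1 (14.8, at 6587 bp) and Spsb1 (13.9, at 14152 bp). In the whole set 396 of the 812 regions (48.8%) were nearest to the annotated first start of their gene, against 55.3% of the regions with all 4 peaks. Peaks of H3K27ac cannot show by themselves that transcription starts at such a site.

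The summits lay within 500 bp of a start site less often than those of generally marked promoters, as did those of regions marked in 1 EGFP+ population alone. The strongest summit lay within 500 bp of a start site in 594 of the 812 regions (73.2%, 70.0 to 76.2%), against 86.3% (85.6 to 86.9%) of regions with all 4 peaks, and more than 500 bp upstream in 135 (16.6%) against 4.40%. Regions with a limb EGFP+ or a trunk EGFP+ peak alone had a summit within 500 bp in 74.2% and 64.5%, and more than 500 bp upstream in 20.3% and 30.4%, so that this position was not particular to the 812. It fell in an annotated exon in 45.6%, in an intron in 36.5% and between genes in 17.98%. The ratio of observed to expected CpG dinucleotides within 500 bp of the start site had a median of 0.60 against 0.75. A ratio under 0.5 was found at 315 start sites (38.8%, 35.4 to 42.2%) against 10.3% (9.75 to 10.8%), and it was as frequent or more so in other restricted classes, at 37.997% with a limb EGFP+ peak alone, 58.2% with a trunk EGFP+ peak alone and 51.0% with both EGFP- peaks only. GC content hardly differed, with medians of 58.4% and 59.5%. Col9a1, Cnmd, Cytl1, Snorc and Chadl are examples of CpG-poor starts, with ratios of 0.18, 0.13, 0.14, 0.16 and 0.22, whereas Hapln1, Acan, Fgfr3 and Sox9 had 0.53, 0.68, 0.77 and 0.79.

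**Figure D5:**
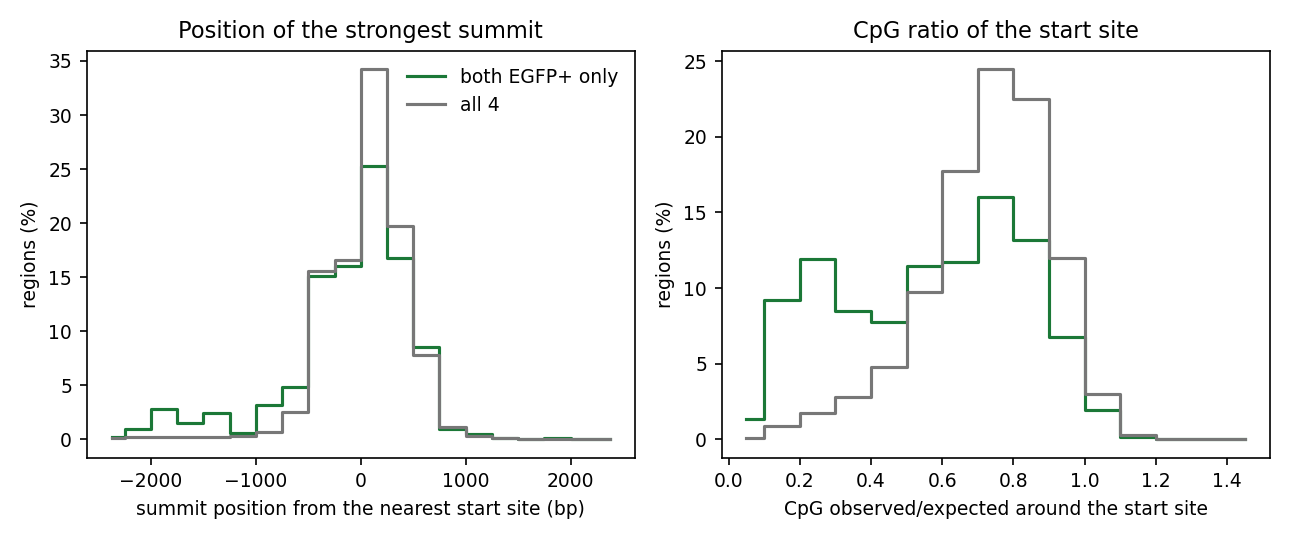
Position of the strongest EGFP+ summit relative to the nearest protein-coding start site in bp (left) and CpG observed/expected ratio within 500 bp of that start site (right), as percent of the 812 regions (green) and of the 12763 promoter regions with all 4 peaks (grey). The green curve has a tail upstream of −500 bp, 16.6% against 4.40%, and a second hump of CpG-poor start sites under 0.5, 38.8% against 10.3%.

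Sequence motifs were searched on both strands in 500 bp centred on the limb EGFP+ summit. Either SOX half-site, AACAAT or ACAAAG, was present in 253 of the 812 windows (31.2%, 27.98 to 34.5%), in 32.2% of windows with all 4 peaks and in 32.6% of all 17198 promoter windows with a limb EGFP+ peak. At the regions of chondrogenic genes it was 27.7% (61 of 220). A window with both half-sites, or with overlapping ones, counts once. The FOX letters TGTTTAC were in 3.33% against 4.36% (4.40% of all 17198), and the TEAD letters GGAATG in 22.9% against 20.9% (21.1%). Higher shares than at generally marked promoters were seen for the E-box CAGCTG, 30.3% (27.1 to 33.6%) against 22.2% (23.3% of all 17198), the RUNX letters TGTGGT, 24.5% (21.6 to 27.6%) against 19.7% (20.4%), and the AP-1 letters TGANTCA, 10.1% (8.11 to 12.4%) against 7.40% (7.68%). The GC box GGGCGG was found less often, in 51.4% against 61.7% (60.1%), and in 39.1% (32.6 to 45.9%) at chondrogenic genes. Promoter regions with a limb EGFP+ peak alone had shares between or near these, 26.7% (24.3 to 29.2%) for the E-box, 23.6% (21.3 to 26.0%) for RUNX, 8.49% (7.03 to 10.1%) for AP-1 and 48.6% (45.9 to 51.4%) for the GC box. Their intervals overlap those of the 812, so that none of these shares was shown to be particular to regions marked in both tissues.

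Base composition differed little between the 812 and the regions with all 4 peaks, with median GC contents of 57.4% and 58.6% in these windows. Within bins of GC content the differences were uneven. Below 50% GC the E-box was in 20.5% (14.4 to 27.9%) of 151 windows against 17.8% of 1498, in windows of 50 to 60% GC in 36.8% (31.9 to 42.0%) of 361 against 21.3% of 5842, and above 60% GC in 27.3% (22.4 to 32.8%) of 300 against 24.5% of 5423. RUNX was in 27.2%, 29.1% and 17.7% in these 3 bins against 24.97%, 21.2% and 16.5%, and AP-1 in 11.9%, 11.4% and 7.67% against 11.8%, 8.11% and 5.40%. The GC box was in 13.9% against 31.7% of windows below 50% GC and in 76.7% against 77.0% above 60%. The letters TATAAA stood 20 to 40 bp upstream of the start site in 9 of 812 cases (1.11%, 0.508 to 2.09%) against 48 of 12763 (0.376%, 0.277 to 0.498%). With both EGFP- peaks only it was 3 of 351 (0.855%, 0.177 to 2.48%). That interval covers the one of the 812, so the share was not shown to be particular to them. A match of so few letters is a description of the window, not a binding site.

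The regions had more distal regions of the same pattern around them than generally marked promoters did. Of the 812, 376 (46.3%, 42.8 to 49.8%) had at least 1 distal region with peaks in both EGFP+ lists only within 100 kb of the start site, against 34.1% (33.3 to 34.9%) of promoter regions with all 4 peaks, and 130 (16.01%, 13.6 to 18.7%) had 3 or more, against 5.95%. With a limb EGFP+ peak alone the shares were 40.6% (37.9 to 43.3%) and 10.6% (8.94 to 12.3%), of which the first overlaps that of the 812. The number was 12 at Acan, 11 at Col2a1, 9 at Col27a1, 6 at Fgfr3, Fzd9 and Matn1, and 5 at Sox9, Sox8 and Matn4, but 0 at Chadl, Itga10 and Nkx3-2. Among regions with 3 or more, 67 of 130 (51.5%, 42.6 to 60.4%) were at a chondrogenic gene, compared with 75 of 436 (17.2%, 13.8 to 21.1%) with 0. Regions of 1 gene share its neighbourhood and its list status but each counts here, and the intervals do not allow for that. Promoter and distal regions come from the same 4 libraries, so errors of a library touch both.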

How the data were processed

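H3K27ac ChIP-seq peak lists of 4 libraries were used, 1 per population. According to the methods and the processing notes, the authors sampled a like number of reads from each library, trimmed with cutadapt 1.18, mapped with Bowtie2 2.3.5.1 to GRCm39 (mm39), kept well-mapped reads with SAMtools and called peaks per library with MACS2 2.2.7.1, extending reads to 200 bp. Equal read numbers limit depth differences between lists, but the EGFP- list of each tissue was still the shorter one. A control library was not named. In the deposited lists the score is 10 times the −log10 q, the fold is the ratio of summit pileup to local background, and −log10 p and −log10 q are the authors' MACS2 values. Names of the trunk EGFP- peaks carry a replicate number that differs from the sample's label. The labels name a pair of sonicators, the methods 1 of them and more than 1 read length, without a link to single libraries.

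Summit rows of 1 start and end were joined, chromosomes 1 to 19, X and Y were kept, and overlapping intervals of the lists were merged. Start sites, 67388 from the protein-coding transcripts of 21581 protein-coding genes, came from the GENCODE annotation of GRCm39. Reads and background at each summit were recovered from fold and −log10 p, for 100% of intervals, and the code was tested on simulated data. With 1 library per population no test was made. Shares have exact Clopper-Pearson intervals at the 95% level, and reads exact Poisson intervals. Python 3.11.15, SciPy 1.17.1 and pysam 0.24.0 were used.

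The members and the gene lists were chosen with earlier results of these data known. Named are the 20 regions with the highest weaker −log10 p, up to 6 genes per cartilage list and 3 per other list by that value, 3 on each side of the rule's edge, the 3 weakest and the 3 strongest at 2 genes. Genes named otherwise (family members, genes with several regions, distant starts, sequence examples) were chosen after their values were seen. RNA-seq and single-cell marker lists are gene names from the study's supplement.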

Additional observations from a re-analysis of the deposited data

How the results depend on the processing

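Under 9 alternative settings the 812 regions, 766 genes and 180 chondrogenic genes stayed within 1.5 times of these counts, apart from the following. With the 20000 strongest intervals of each list there were 450 regions, 462 genes and 117 chondrogenic genes. Where both EGFP+ intervals had to have a fold of at least 4 there were 215, 216 and 56. Without regions that had an EGFP- interval within 1 kb there were 427 regions and 386 genes. With 1 start site per gene there were 514 regions. These settings admit fewer intervals, regions or start sites by construction. The chondrogenic share of the genes was 21.5 to 34.2% over the 9 settings, against 23.5%, with the highest value where EGFP- intervals were kept 1 kb away. The other settings were a −log10 q of at least 5, a window of 500 bp on each side, an EGFP+ interval of each tissue in the window itself, autosomes alone and an overlap of 50% of the shorter interval.

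No paired analysis was possible because each population has 1 library and no test was made, so the shared replicate number pairs nothing. No replicate was left out for the same reason. Depth limits what counts as unmarked: the fewest reads of any listed EGFP- interval were 7 in the limb and 8 in the trunk, and weaker acetylation is not in the lists. A region is counted or not by a single call, as at Col9a2. The −log10 p is relative to the local background, which was 41.1 reads at Col2a1 and 40.6 at Sox6 in the limb.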
